A study of Mus musculus with 6 samples.

Results

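Total nuclear RNA was compared between an early and a late stage of a 4-thiouridine washout in female mouse embryonic stem cells. The members are all 6 libraries of the series, taken by washout time alone: 0, 30 and 60 min formed the early group and 90, 120 and 150 min the late group, with 3 libraries in each. The readout is the number of reads per gene, labelled and unlabelled together, in 15418 of 23281 listed genes that passed a filter on low counts. Of these, 685 genes were higher and 483 were lower in the late group, mostly by small amounts. Genes with lower late levels, 3.13% of all tested, included 7 of 31 targets of the stress regulator p53 (22.6%). They also included 7 of 24 listed glycolysis genes (29.2%). Genes with higher late levels, 4.44% of all tested, included 6 of 25 genes of the Wnt pathway (24%). Of 21 genes of Nodal and BMP signalling, 4 were higher (19%). Without the 0, 60, 120 or 150 min library, the test behind these counts called 0 genes.

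In SLAM-seq, cells take up 4-thiouridine (4sU), an analogue of uridine, and build it into newly made RNA. Iodoacetamide then modifies the incorporated 4sU so that it reads as a T-to-C change, and excess uridine in the washout dilutes what remains of it. The method is built to follow the labelled reads, and the total reads of the same libraries show whether RNA levels differed as the washout went on. In nuclear RNA, short-lived transcripts and unprocessed precursors weigh more than in whole cells, where long-lived cytoplasmic mRNA prevails.

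The cells were a 129S x Cast hybrid line whose Xist promoter on the 129S allele had been exchanged for a doxycycline-inducible TetOn promoter, with a Bgl stem-loop at the 3' end of Xist. Doxycycline was given to all 6 cultures at 1 µg/ml, first alone for 17.5 to 20 h and then for 4 h together with 4sU at 500 µM. The 0 min culture was then collected without washout, while the others spent 30 to 150 min in medium with 50 mM uridine and doxycycline. Starts were staggered so that total doxycycline time was equal and all cultures were collected together. Every culture, those of the early group included, thus carried the same allele, induction and label, and no culture was left unlabelled or uninduced. Feeder cells had been removed by pre-plating, nuclei were isolated, and 1 library was made per time. The times of a group therefore stand in for replicates. Tests of the groups treat the spread among 3 times, including any trend within the group, as if it were spread among replicates. The column headers of the deposited table hold numbers without a unit, which were read as washout times lacking their final 0, with the unnumbered columns as 0 min. If that reading were wrong, the groups would change.

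The libraries held 18558073 to 28535162 reads, with no order by group. The T-to-C rate did separate the groups: it was 4.05, 2.69, 4.11, 2.57, 1.55 and 1.17% of covered T positions from 0 to 150 min, or 3.62 ± 0.801% (SD, n = 3) early and 1.76 ± 0.727% late. The exact two-sided permutation p was 0.1, the smallest that 3 against 3 libraries allow. Washout time and amount of label thus cannot be told apart between the groups. Stem cell markers were read in all libraries, and the 10 listed, from Pou5f1 to Fgf4, summed to 3050 to 3560 CPM, the reads of a gene scaled to the size of its library. Fibroblast markers were also present after pre-plating. They summed to 5090 ± 631 CPM (SD, n = 3) early and 4520 ± 595 late (exact two-sided permutation p = 0.3), led by Fn1, Vim and Sparc, while Lum had 0 to 4 reads. Of the 25 tested fibroblast markers edgeR called 0 (3 had an unadjusted p under 0.05, and DESeq2 called 1 lower). Much of the fibroblast sum was Fn1, at 2320 to 3550 CPM by library size alone, and the marker sums do not measure shares of cells. In such bulk RNA, fewer cells of a type and less RNA per cell cannot be told apart. Trophoblast and endoderm markers summed to 86.8 to 119 CPM, most of it Tfap2c, which stem cells can also express, and Cdx2, Foxa2 and Ttr were at 0 in 1, 2 and 5 libraries. The rRNA-linked gene models Gm26917 and Gm42418 took 4.67 to 8.89% of reads without separating the groups (6.53 ± 1.39% early, 7.44 ± 2.4% late, SD, n = 3, exact two-sided permutation p = 0.8).

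Xist, whose RNA spreads over an X chromosome and silences its genes, was the transcript for which the experiment was made, and it did not pass the test. It had 1099, 1137, 1149, 1120, 1264 and 1393 CPM from 0 to 150 min (ENSMUSG00000086503; chromosome X, 103460366 to 103483254, minus strand, mm10, annotated as a lincRNA). The 120 and 150 min libraries were the highest, but the 90 min value lay among the early ones. The late minus early difference was 0.16 ± 0.11 on the log2 scale (SE, edgeR adjusted p = 0.358, exact two-sided permutation p = 0.3). Here and below, CPM values were scaled with TMM, a factor that corrects for the most abundant RNAs, and a gene was called at a Benjamini-Hochberg adjusted p under 0.05 in edgeR's quasi-likelihood test over all 15418 genes. Of the other noncoding nuclear RNAs, Malat1 of nuclear speckles (-0.23, edgeR adjusted p = 0.308) and Neat1 of paraspeckles (-0.10, edgeR adjusted p = 0.576) were not called either. Ftx, a noncoding neighbour of Xist, was lower late. It had 13.9, 14.9, 11.4, 10.2, 7.72 and 8.03 CPM, each late value below every early one (1.55-fold lower, log2 -0.63 ± 0.15, edgeR adjusted p = 0.0343). Pvt1, the noncoding neighbour of Myc, was lower late too (30.7, 29.8, 33.5, 21.8, 17 and 11.2 CPM, 1.87-fold, edgeR adjusted p = 0.0284). Of 15 tested nuclear noncoding RNAs, these 2 were called lower (13.3%, against 3.13% of all genes) and 0 higher. With the trend across genes on labelled share removed, an alternative described below, Ftx was no longer called (edgeR adjusted p = 0.0521).

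Across all genes, edgeR called 1168 of 15418 (7.58%), of which 685 (4.44% of those tested) were higher and 483 (3.13%) lower in the late group. The differences were mostly small, with a median of 1.45-fold among higher genes and 1.59-fold among lower ones. Only 16 of the higher genes differed by more than 2-fold, against 113 of the lower ones. The lower genes also had fewer reads, with a median of 283.2 per library against 1002 for the higher ones. Whether depth bears on the size of the differences was not tested. The 3 late values lay wholly above the 3 early ones in 2630 genes (17.1%) and wholly below in 2451 (15.9%). The calls depended on which times were present. edgeR called 0 genes without the 0, 60, 120 or 150 min library, where 3279, 3083, 3138 and 3050 genes had an unadjusted p under 0.05 and DESeq2 called 529, 601, 508 and 472. Without the 30 min library edgeR called 2270 genes and without the 90 min library 2987. In all 6 of these fits 1167 of the 1168 genes had an unadjusted p under 0.05 and the same direction, though where groups do not overlap the direction is fixed in advance. The remaining gene was not tested in some of the fits. As the 1168 genes were picked for small p-values on these same libraries, their p-values in the fits are no independent support.

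**Figure D1:**
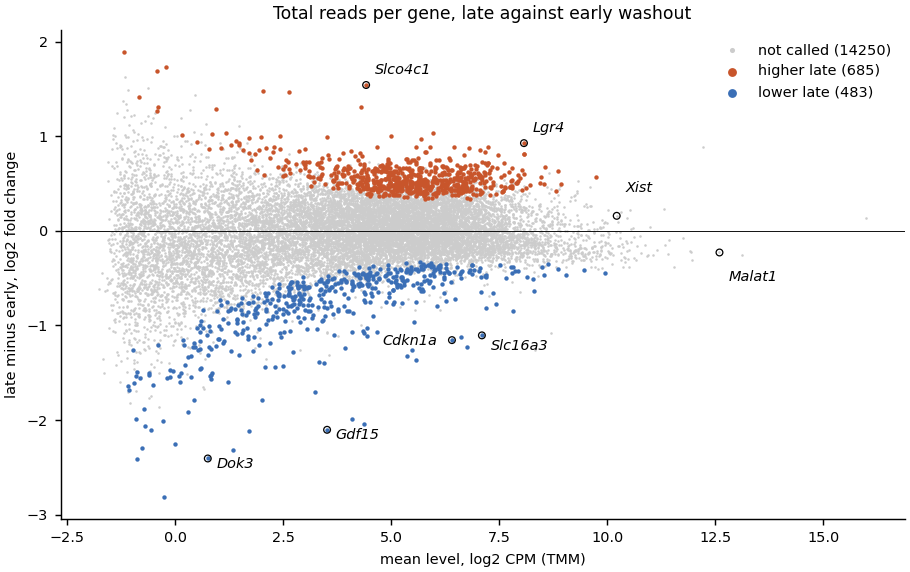
Late minus early log2 fold change of total reads (y) against mean level in log2 CPM (x) for the 15418 genes tested. Orange points are the 685 genes called higher late, blue points the 483 called lower late and grey points genes not called, and 8 genes are circled and named. The blue points reach further from 0 than the orange ones.

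Called genes also followed an order within each group that the split had not used. Among the 3 early libraries, the 30 min library was the highest for 605 of the 685 higher-late genes (88.3%, against 35.8% of all genes tested), and the 60 min library the lowest for 561 (81.9%, against 36.3%). Among the late libraries, 150 min was the highest for 398 (58.1%, against 33.9%) and 90 min the lowest for 453 (66.1%, against 39.6%). Lower-late genes showed the opposite order, with 60 min the highest early library for 276 of 483 (57.1%, against 37.4%) and 90 min the highest late library for 353 (73.1%, against 38.6%). The 30 and 90 min libraries, on either side of the border between groups, had neighbouring T-to-C rates of 2.69 and 2.57%. On the first principal component of log2 CPM, which held 59.2% of the variance, the libraries stood at -32.5 (60 min), -16.8 (0 min), -5.43 (30 min), 1.76 (90 min), 22.5 (120 min) and 30.4 (150 min). That is also the order of falling T-to-C rate, a description over 6 libraries. Whether reads with many conversions were counted less often was not tested.

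**Figure D2:**
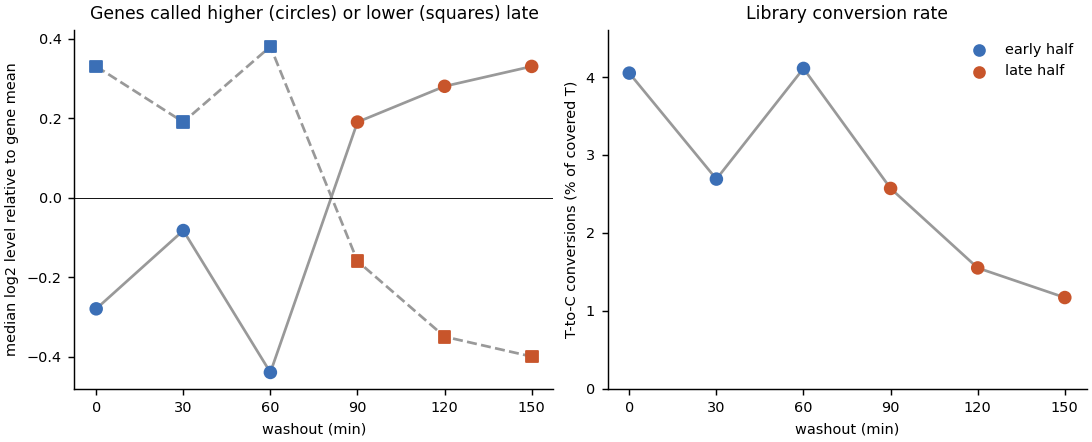
Left, the median log2 level, relative to each gene's own mean, of the 685 higher-late genes (circles) and the 483 lower-late genes (squares) against washout time in min. Right, the library T-to-C rate in percent of covered T positions, with early libraries in blue and late ones in orange. Of the early libraries, 30 min lies nearest to 0 in both gene groups, at -0.083 and 0.19, and has the lowest T-to-C rate, 2.69%.

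The called genes differed from the rest in base composition and in how much label they had taken up. The median GC content of their annotated transcripts was 43.7% for higher-late genes and 55.0% for lower-late genes, against 49.8% for all genes tested. With genes ranked by GC content and cut into 5 equal bins, 11.5% of the lowest bin were called higher and 0.584% lower, and 1.01% and 7.01% of the highest bin. Higher-late genes were also longer, with a median of 34.5 kb of genomic span against 23.3 kb for all genes and 20.7 kb for lower-late genes. Their labelled share at 0 min, the authors' estimate of the fraction of a gene's reads made during the 4 h pulse, had a median of 67.8%, against 49.0% for all genes. For lower-late genes the median was 28.5%, with a wide interquartile range of 15.6 to 71.0%. With the same binning by labelled share, 0 genes of the lowest bin were called higher and 217 lower (7.01%, against 3.13% of all genes). In the highest bin 220 were higher (7.15%, against 4.44%) and 109 lower (3.54%, near the 3.13% of all genes). The bins between them had 1.04 to 2.86% lower. Lower-late calls were thus most frequent among the RNAs with the least label at 0 min. They were fewer in the bins between and rose again to 3.54% among the RNAs with the most label. These properties share gene structure and depth with the read counts and are given as descriptions.

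**Figure D3:**
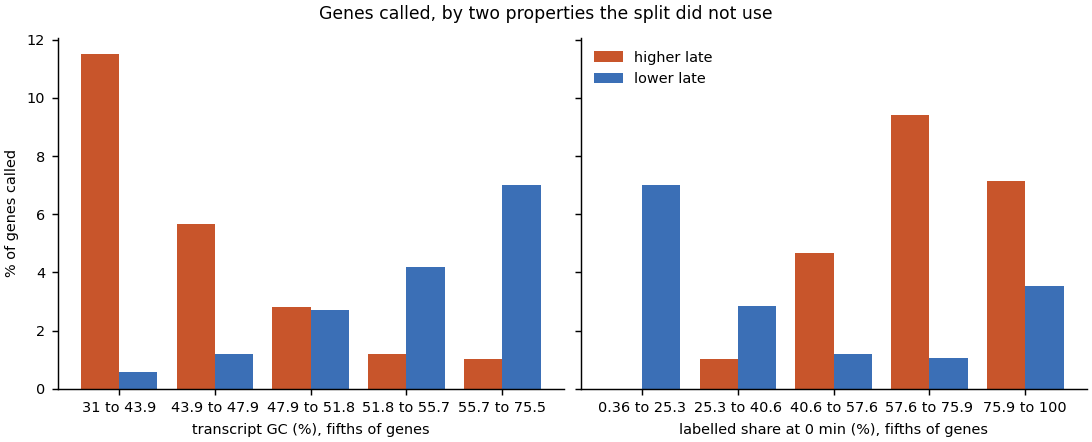
Percent of genes called higher late (orange) or lower late (blue) in 5 equal bins of all tested genes, by GC content of the transcript (left) and by labelled share at 0 min (right), with the ranges in percent under the bars. Higher-late calls fall from 11.5% to 1.01% with GC content. By labelled share, lower-late calls stand at 7.01% in the lowest bin and 3.54% in the highest, against 3.13% of all genes.

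Correcting for these properties changed the counts. With each library's trend on GC content removed, an alternative chosen after seeing the data, edgeR called 559 genes (360 higher, 199 lower), of which 466 were among the 1168. With the trend on labelled share removed instead, also chosen after seeing the data, it called 740 (476 higher, 264 lower), of which 625 were among the 1168.

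p53 is a transcription factor that is held low by the ubiquitin ligase Mdm2 and, when DNA or the nucleolus is damaged, switches on genes for cell cycle arrest, cell death and metabolic restraint. Its binding site, the p53 response element, is a pair of 10-base palindromes, searched here without a spacer between them. Of 31 listed p53 targets, 23 had promoters in the RefSeq table for GRCm38.p6, in 31 windows from 250 bases before to 50 after a transcript start. A p53 response element with at most 2 mismatches outside its 4 core bases was found in 3 of these 31 windows, against 107 of all 32851 windows (0.326%). The consensus is its own reverse complement, so a match counts for both strands. All 3 windows with a match are shown, with the element in capitals.
Cdkn1a, chr17:29090729-29091028, plus strand: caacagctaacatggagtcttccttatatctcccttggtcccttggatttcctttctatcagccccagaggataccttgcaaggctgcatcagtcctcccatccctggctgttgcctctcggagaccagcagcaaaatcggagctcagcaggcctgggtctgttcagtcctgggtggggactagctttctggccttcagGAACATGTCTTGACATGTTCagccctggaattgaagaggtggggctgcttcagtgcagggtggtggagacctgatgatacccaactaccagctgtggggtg
Ccng1, chr11:40755237-40755536, minus strand: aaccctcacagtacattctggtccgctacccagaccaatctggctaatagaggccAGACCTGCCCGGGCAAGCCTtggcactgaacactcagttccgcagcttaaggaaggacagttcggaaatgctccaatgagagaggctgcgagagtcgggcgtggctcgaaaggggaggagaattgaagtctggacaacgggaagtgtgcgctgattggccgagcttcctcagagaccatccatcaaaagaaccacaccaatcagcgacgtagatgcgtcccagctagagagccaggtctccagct
Rps27l, chr9:66946163-66946462, plus strand: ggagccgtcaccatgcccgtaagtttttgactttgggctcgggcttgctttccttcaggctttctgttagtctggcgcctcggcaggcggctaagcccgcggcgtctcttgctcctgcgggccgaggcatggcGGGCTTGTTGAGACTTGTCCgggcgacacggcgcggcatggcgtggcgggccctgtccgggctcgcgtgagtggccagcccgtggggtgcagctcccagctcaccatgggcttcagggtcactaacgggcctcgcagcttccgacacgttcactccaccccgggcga
Each element has 1 mismatch to the consensus and starts 51, 195 and 117 bases before the transcript start in Cdkn1a, Ccng1 and Rps27l. A match describes letters only. Over all called genes, 1 of 656 windows of higher-late genes and 2 of 424 of lower-late genes held one.

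Lower late were 7 of the 31 p53 targets (22.6%, against 3.13% of all genes), and 1 was higher. The median log2 difference of the list was -0.24, against -0.013 for all genes tested, and ranged from -0.50 to -0.13 as single libraries were left out. Gdf15, a secreted stress cytokine, had 18.5, 14.1, 23.2, 6.92, 3.65 and 2.33 CPM from 0 to 150 min (ENSMUSG00000038508; chromosome 8, 70629393 to 70632456, minus strand). All late values lay below all early ones, the 60 min library being the highest and the 150 min library the lowest. The fall was 4.3-fold (log2 -2.10 ± 0.30, SE, edgeR adjusted p = 0.016). Pidd1, a death domain protein of the PIDDosome, had 62.1, 60.4, 66.7, 43.1, 19.7 and 16 CPM (2.4-fold lower, edgeR adjusted p = 0.029). Its 90 min value stood between the early level and that of the last 2 libraries. Btg2, an antiproliferative gene, fell in the same steps with 134, 142, 181, 109, 51 and 34.6 CPM (2.34-fold lower, edgeR adjusted p = 0.0379), though DESeq2 did not call it (adjusted p = 0.0923). Sesn2, a sestrin that restrains growth signalling, was 1.75-fold lower (edgeR adjusted p = 0.0482) and missed the threshold in DESeq2 as well (adjusted p = 0.114).

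Further targets are named here after their values were seen. Cdkn1a, the cyclin-dependent kinase inhibitor p21, had 111, 107, 133, 80.4, 41.9 and 35.5 CPM (ENSMUSG00000023067; chromosome 17, 29090976 to 29100727, plus strand). The early libraries lay close together, 90 min was lower, and the last 2 were lower again (2.23-fold lower, log2 -1.16 ± 0.24, edgeR adjusted p = 0.0284). Bbc3, the death inducer PUMA, was 2.04-fold lower and Phlda3, an inhibitor of Akt, 1.73-fold lower (edgeR adjusted p = 0.0284 and 0.0334). Mdm2 had 494, 527, 665, 486, 186 and 125 CPM, with the 90 min value just under the lowest early one and far above the last 2, and was not called at log2 -1.08 ± 0.37 (edgeR adjusted p = 0.0809). Ccng1, cyclin G1, had 898, 1080, 879.7, 1449, 874 and 736 CPM, highest at 90 min, with no difference called (log2 0.10 ± 0.21, edgeR adjusted p = 0.777). Rps27l, a ribosomal protein paralogue, had 212, 178, 199, 188, 165 and 157 CPM and was not called (edgeR adjusted p = 0.224). Of the 3 genes with an element in the windows above, only Cdkn1a was therefore called. Rrm2b, the p53-inducible ribonucleotide reductase subunit, was the 1 member higher late, with 10.2, 11.8, 9.21, 14.3, 16 and 14.4 CPM (1.44-fold, edgeR adjusted p = 0.0368). The 7 lower members were almost wholly new RNA at the end of the pulse, from 87.5% labelled (Phlda3) to 95.2% (Bbc3) at 0 min, while Rrm2b was 44.7% labelled. With the trend on labelled share removed edgeR called 7 members lower, and with the GC trend removed 4.

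**Figure D4:**
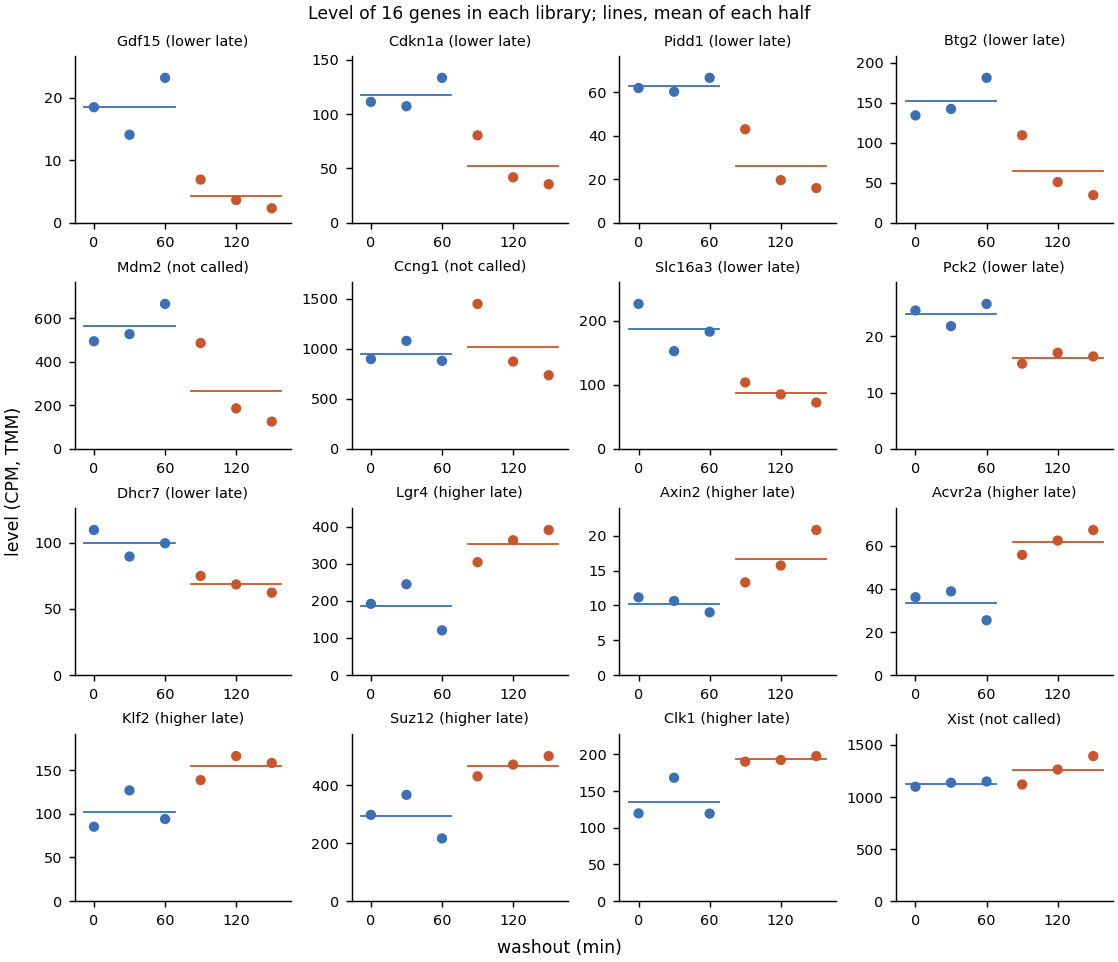
TMM-scaled CPM (y, from 0) in each library against washout time in min (x) for 16 genes, of which Cdkn1a, Mdm2, Ccng1, Axin2 and Pck2 were among those picked with values known. Blue points are early and orange points late libraries, each line is a group mean, and each title gives the call. In the p53 targets Gdf15, Cdkn1a, Pidd1 and Btg2 the 120 and 150 min values lie lowest, whereas Ccng1 peaks at 90 min and Xist at 150 min.

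Immediate early genes, which signals switch on within minutes without new protein, moved both ways: 4 of 33 were higher (12.1%, against 4.44% of all genes) and 3 lower late (9.09%, against 3.13%), with a median of 0.054. Removal of the GC trend gave 4 higher and 1 lower. Fos, a subunit of the transcription factor AP-1, had 9.45, 13, 21.2, 8.96, 4.65 and 2.93 CPM (2.62-fold lower, edgeR adjusted p = 0.0379, DESeq2 adjusted p = 0.0737). Its 90 min value lay below the lowest early value by a small margin. Arc, an activity-regulated gene named here after its values were seen, was 2.16-fold lower (edgeR adjusted p = 0.0311), and Btg2, described above, is also on this list. Klf10, a transcription factor induced by TGF-beta, went the other way with 75.9, 74.1, 74.3, 113, 118 and 111 CPM, flat within each group (1.53-fold higher, log2 0.61 ± 0.09, edgeR adjusted p = 0.016). Ctgf, a secreted matricellular protein, was 1.61-fold higher (edgeR adjusted p = 0.0315). Mcl1, which protects cells from apoptosis, and Plk3, a stress kinase, both named after their values were seen, were the other higher members.

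Glycolysis turns glucose into pyruvate and lactate, and its enzymes are made from abundant, stable mRNA in stem cells. Of 24 tested glycolysis entries, 7 were lower late (29.2%, against 3.13% of all genes) and 0 higher, with a median of -0.38. Slc16a3, the lactate exporter MCT4, had 226, 153, 183, 104, 85.2 and 72.5 CPM (ENSMUSG00000025161; chromosome 11, 120948480 to 120960868, plus strand). It was lower in all late libraries and lowest at 150 min (2.15-fold, log2 -1.10 ± 0.16, edgeR adjusted p = 0.016). Eno1b, an enolase copy that is nearly identical to Eno1 and may share its reads, was 1.57-fold lower (edgeR adjusted p = 0.0232). The phosphofructokinases Pfkp and Pfkl, the pyruvate dehydrogenase kinase Pdk1, hexokinase Hk1 and the lactate dehydrogenase subunit Ldhb, named after their values were seen, were 1.35-fold (Pdk1) to 1.42-fold (Pfkp) lower. In contrast to the p53 targets these RNAs carried little label at 0 min, from 3.13% (Pfkl) to 17.4% (Pfkp). With the trend on labelled share removed edgeR called 1 member lower and the list median was -0.079, and with the GC trend removed it called 4.

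All 84 tested nuclear genes of the respiratory chain and 81 of 82 cytosolic ribosomal protein genes had negative differences, with medians of -0.21 and -0.24, but edgeR called 0 and 3 (3.66%) of them, near the 3.13% of all genes. The 3 were Rpl10a, Rpl3 and Rpl36, of which Rpl36 is named after its values were seen, at 1.33-fold (Rpl36) to 1.38-fold (Rpl10a) lower, and all ribosomal protein genes have pseudogene copies that can share reads. An unadjusted p under 0.05 was found for 31 respiratory chain and 34 ribosomal protein genes, against 4563 of all 15418. The late values lay wholly below the early ones in 36 and 30 of them, against 15.9% of all genes. DESeq2 called 3 and 9 lower, against 740 of all genes. With the GC trend removed both medians were -0.17 and edgeR called 0 and 1 lower. With the trend on labelled share removed the medians were 0.024 and -0.022, so the respiratory chain median changed sign. Replication-dependent histone genes, which lack poly(A) tails and come in near-identical copies, had a median of -0.17 with 2 of 60 lower (3.33%, near the 3.13% of all genes), Hist1h3c (1.37-fold) and Hist1h2bc (1.34-fold). With the labelled share trend removed 6 were lower, and with the GC trend removed 1 was and the median was -0.031.

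Sterol and lipid synthesis genes are driven by SREBP transcription factors when membrane cholesterol is low. Of 30 tested, 5 were lower late (16.7%, against 3.13% of all genes) and 0 higher, with a median of -0.17. Dhcr7, the last enzyme of cholesterol synthesis, had 109.8, 89.7, 99.8, 75, 68.6 and 62.4 CPM with every late value below the early ones (1.45-fold lower, edgeR adjusted p = 0.0284). Mvd and Pmvk of the mevalonate pathway and the regulator Srebf2, named after their values were seen, were 1.43-fold, 1.41-fold and 1.31-fold lower. With the GC trend removed edgeR called 1 member lower, and with the labelled share trend removed 3.

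The integrated stress response slows translation and turns on amino acid synthesis and transport through the transcription factor Atf4. Lower late were 4 of 25 listed genes (16%, against 3.13% of all genes) and higher was 1 (4%, against 4.44%), with a median of -0.28. Differences were negative for 22 of them, against 7951 of 15418 over all genes. Sesn2, described above with the p53 targets, is also on this list. Ddit3, the factor CHOP, had 18.9, 14.9, 26.2, 13.2, 13.2 and 10.3 CPM, with its lowest early value near the late ones (1.63-fold lower, edgeR adjusted p = 0.0436). Aldh18a1 of proline synthesis and Pck2, the mitochondrial PEP carboxykinase, named after their values were seen, were 1.51-fold and 1.48-fold lower. Cebpg, a bZIP partner of Atf4, was 1.34-fold higher (edgeR adjusted p = 0.035). The unfolded protein response, a related pathway of the endoplasmic reticulum, had 3 of 22 higher (13.6%, against 4.44% of all genes) and 1 lower (4.55%, against 3.13%). Xbp1, its main transcription factor, had 58, 77.4, 43.2, 79.7, 103 and 121 CPM (1.7-fold higher, edgeR adjusted p = 0.0381), with 30 and 90 min nearly equal. Syvn1, a ubiquitin ligase of protein disposal, was 1.54-fold higher and the chaperone partner Sdf2l1 1.43-fold lower (edgeR adjusted p = 0.0315 and 0.031). The sensor kinase gene Ern1, named after its values were seen, was 1.5-fold higher. With the labelled share trend removed 1 of the 22 was called higher and 0 lower, and Xbp1, Syvn1 and Sdf2l1 missed the threshold (edgeR adjusted p = 0.0519, 0.0509 and 0.125). Removal of the GC trend gave 3 higher and 0 lower.

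Wnt ligands bind Frizzled receptors with the co-receptors Lrp5 and Lrp6, which stabilises beta-catenin and supports self-renewal of embryonic stem cells. Of 25 tested genes of the pathway 6 were higher late (24%, against 4.44% of all genes) and 0 lower, with a median of 0.25. Lgr4, a receptor for R-spondins that strengthens the signal, had 192, 245, 121, 305, 364 and 391 CPM (ENSMUSG00000050199; chromosome 2, 109917647 to 110014257, plus strand). The 60 min library was by far the lowest and the late libraries were all above the early ones (1.9-fold, log2 0.93 ± 0.20, edgeR adjusted p = 0.0299). Sp5, a direct target of beta-catenin, had only 0.351, 0.632, 0.345, 0.86, 1.16 and 1.19 CPM (2.47-fold, edgeR adjusted p = 0.0425). It averaged 17 reads, DESeq2 gave it no adjusted p, and with the labelled share trend removed it missed the threshold (edgeR adjusted p = 0.0603). The receptors Fzd7 and Lrp6 and the feedback genes Axin2 and Znrf3, named after their values were seen, were 1.38-fold (Znrf3) to 1.61-fold (Axin2) higher. Axin2, a scaffold that Wnt signalling itself induces, had 11.2, 10.7, 9.01, 13.3, 15.7 and 20.9 CPM, with all late values above all early ones. With the GC trend removed 6 calls were made in the list, and with the labelled share trend removed 4.

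Nodal and BMP signals act through paired receptors and Smad proteins, and 4 of 21 genes of these pathways were higher late (19%, against 4.44% of all genes) and 0 lower, with a median of 0.28. Acvr2a, an activin and Nodal receptor, had 36.2, 38.9, 25.5, 55.9, 62.5 and 67.4 CPM, with 60 min the lowest (1.85-fold, log2 0.89 ± 0.14, edgeR adjusted p = 0.0198). Bmpr1a, a BMP receptor, had 117, 138, 87, 188, 190.4 and 182 CPM (1.64-fold, edgeR adjusted p = 0.0284). Its late libraries were level and stood above the early ones. Lefty1, a Nodal antagonist, and Id1, a BMP target, named after their values were seen, were 1.42-fold and 1.39-fold higher. In the FGF and ERK pathway 5 of 29 were higher (17.2%) and 0 lower, and with the GC trend removed 3 were higher. Fgf5, a ligand that marks exit from the naive state, had 1.93, 2.09, 1.42, 3.3, 3.99 and 3.15 CPM (1.94-fold, edgeR adjusted p = 0.031), and Spry1, an ERK feedback inhibitor, 9.8, 10.5, 9.86, 15.2, 16.1 and 16.2 CPM (1.57-fold, edgeR adjusted p = 0.022). Both were close to flat within the early libraries apart from a low Fgf5 value at 60 min. Il17rd and Sos1, named after their values were seen, were also higher.

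Pluripotency regulators were called mostly higher late, and the 1 lower call was lost with either trend removed. Of 19 naive state genes (15.8% called, against 7.58% of all genes), Klf2 and Socs3 were higher late and Tcl1 lower, with a median of 0.16, and of 21 core factors (9.52% called) 2 were higher, Rif1 among them, and 0 lower. Klf2, a transcription factor of the naive state, had 85.2, 127, 94, 139, 166 and 158 CPM (1.51-fold, edgeR adjusted p = 0.0334). The 30 min value came close to that of 90 min. With the GC trend removed 3 naive state genes and 1 core factor were called higher and 0 lower. With the labelled share trend removed 2 of each list were higher and 0 lower. Tcl1 (edgeR adjusted p = 0.0719 and 0.0887) and Rif1 (edgeR adjusted p = 0.1 and 0.0606) missed the threshold both times. Of 566 tested X-linked genes 19 were higher and 9 lower (4.95% called), with a median of -0.028.

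Proteins that act with Xist in silencing include the m6A writers, which methylate it, and Polycomb complexes, which mark the chromatin it coats. Of 37 such genes 6 were higher late (16.2%, against 4.44% of all genes) and 0 lower, with a median of 0.13. Suz12, a core subunit of Polycomb repressive complex PRC2, had 297, 366, 216, 430.2, 471 and 499.9 CPM (1.59-fold, edgeR adjusted p = 0.0343). Zc3h13, which anchors the m6A writer in the nucleus, had 112, 128, 94.2, 142, 179.5 and 192 CPM (1.54-fold, edgeR adjusted p = 0.03). In both genes 60 min was lowest and 150 min highest. The writer subunits Mettl14 and Wtap, the Polycomb subunit Pcgf5 and the chromatin factor Ctcf, named after their values were seen, were 1.37-fold (Wtap) to 1.48-fold (Mettl14) higher. With the GC trend removed 3 of the list were called, and with the labelled share trend removed 5.

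Of 20 genes of the nuclear exosome and its adaptors, which degrade and trim nuclear RNA, 4 were higher (20%, against 4.44% of all genes) and 0 lower (against 3.13%), led by the adaptor subunit Zcchc8 (1.45-fold, edgeR adjusted p = 0.0368) and the poly(A) polymerase Papd5 (1.43-fold, edgeR adjusted p = 0.0315). Exosc1 and Mphosph6, named after their values were seen, were the other 2. Of the 20, 2 were called with the GC trend removed, and with the labelled share trend removed 1. Zcchc8 missed the threshold both times (edgeR adjusted p = 0.0513 and 0.057), while Papd5 was called both times (edgeR adjusted p = 0.0474 and 0.0437). Of 31 splicing genes of the SR and CLK families 3 were higher (9.68%, against 4.44% of all genes) and 0 lower, all 3 of them kinases that phosphorylate SR proteins. Clk4 had 43.7, 61.7, 48.5, 71.1, 75.6 and 76 CPM and Clk1 119.6, 168, 119, 190.1, 192 and 198 CPM (1.45-fold and 1.43-fold, edgeR adjusted p = 0.0315 and 0.0404), and Clk3, named after its values were seen, was 1.4-fold higher. The 30 min values of Clk1 and Clk4 were well above the other early values. Of the 31, 1 was called higher with the GC trend removed. With the labelled share trend removed 2 were higher and 1 lower, and the list median went from 0.10 to -0.008. Zinc finger genes named Zfp, many of which repress transposable elements, had 274 of 346 positive differences (against 7467 of 15418 over all genes) and a median of 0.19. Of these, 29 were called higher (8.38%, against 4.44%) and 4 lower (1.16%, against 3.13%), Zfp750 among the lower ones. With the GC trend removed 6 were higher and 2 lower, and with the labelled share trend removed 23 and 3. Zfp985 and Zfp988 led the higher ones and lie in a cluster of near-identical genes, so their reads may be shared.

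**Figure D5:**
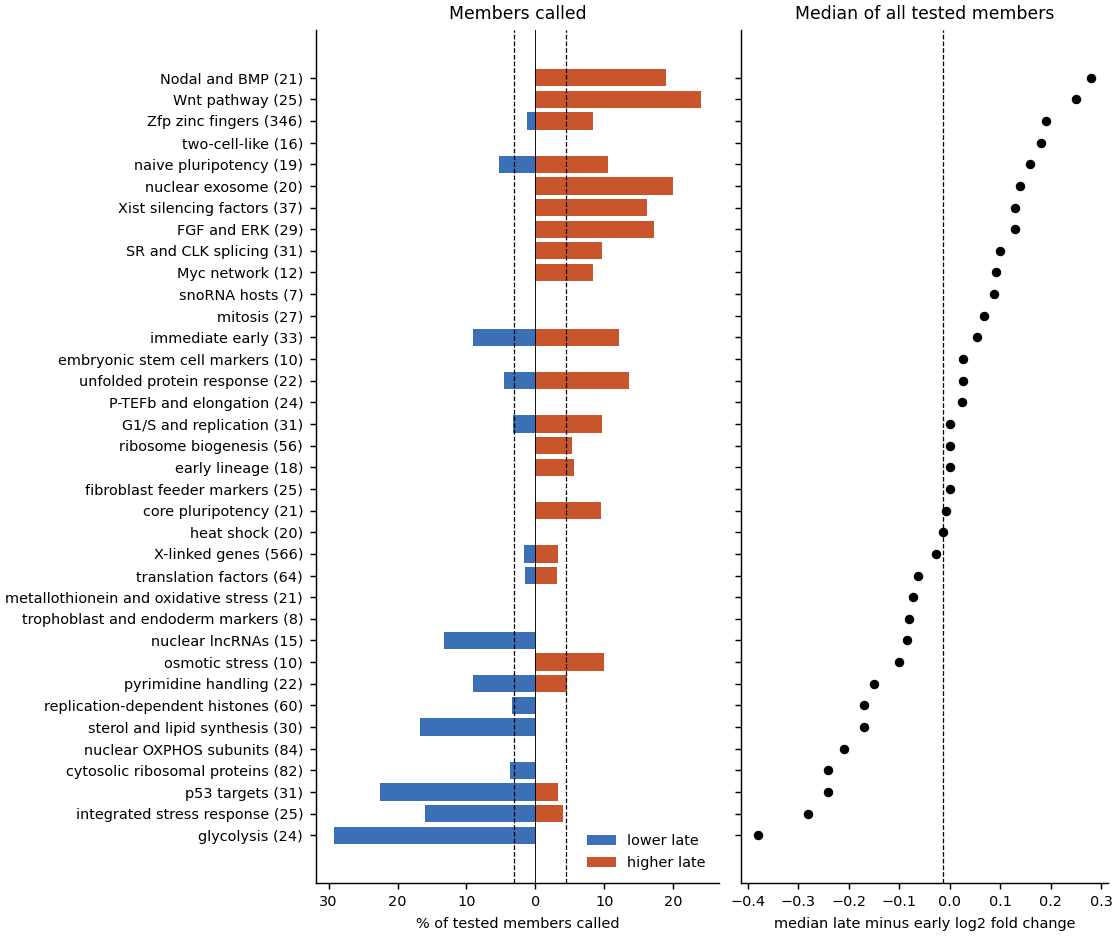
Left, percent of tested members of each gene list with at least 5 tested members called lower late (blue, to the left) or higher late (orange, to the right), with the number of tested members in parentheses and dashed lines at the 3.13% and 4.44% of all genes. Right, the median late minus early log2 fold change of all tested members, with a dashed line at the median of all genes, -0.013. Of the lists plotted, glycolysis has the lowest median, -0.38, and Nodal and BMP the highest, 0.28.

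The genes with the largest differences belonged to few of these lists. Among genes averaging 100 reads or more whose groups did not overlap, the 12 largest late increases ran from 1.85-fold (Acvr2a) to 2.91-fold (Slco4c1). Slco4c1, an organic anion transporter, had 10.6, 15.7, 6.71, 23.3, 31.2 and 41 CPM (ENSMUSG00000040693; chromosome 1, 96816270 to 96872171, minus strand). It stood lowest at 60 min and highest at 150 min (log2 1.54 ± 0.26, edgeR adjusted p = 0.0198). Chst15, a chondroitin sulfotransferase, had 3.2, 3.94, 2.84, 7.29, 9.11 and 11 CPM (2.76-fold, edgeR adjusted p = 0.016), and Casd1, which acetylates sialic acid in the Golgi, 11.4, 14.8, 8.21, 23, 29.8 and 31.8 CPM (2.47-fold, edgeR adjusted p = 0.016). Both were named for large differences without overlap, so the distance between their groups follows from the choice. The palmitoyltransferase Zdhhc13, the transcription factors Klf15 and Foxd3, the acyltransferase Gpat3, the inner nuclear membrane protein Lemd3, the kainate receptor partner Neto2 and the growth factor binding protein Igfbp3 lay between 1.85-fold (Igfbp3) and 2.05-fold (Zdhhc13), and Lgr4 is described above. Arrdc3 and Plxdc2 had among the 5 smallest p-values of higher genes with smaller differences (1.67-fold and 1.69-fold, edgeR adjusted p = 0.016 and 0.016).

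The 12 largest late decreases ran from 2.43-fold (Prr15l) to 4.3-fold (Gdf15). Akap5, which anchors protein kinase A, had 27.1, 22.3, 50.7, 13.7, 5.66 and 4.99 CPM, with a peak at 60 min (4.1-fold, log2 -2.04 ± 0.36, edgeR adjusted p = 0.0232). Fam212b had 26.5, 21.5, 34.4, 13.3, 4.69 and 2.77 CPM (3.96-fold, edgeR adjusted p = 0.0284), and Fam83h, a keratin-associated protein, 67.5, 60.4, 79.7, 38.7, 23.6 and 17.9 CPM (2.58-fold, edgeR adjusted p = 0.0195). In all 3 the 120 and 150 min libraries were lowest. Zfp750, a regulator of epidermal differentiation, followed the same course (2.49-fold, edgeR adjusted p = 0.0451, DESeq2 adjusted p = 0.112). Lrrc3, Fam196a (DESeq2 adjusted p = 0.111), B430305J03Rik and the lincRNA Gm13067 were 2.62-fold (Fam196a) to 3.25-fold (Lrrc3) lower, Fos is described above, and the calcium pump gene Atp2b2 was 2.72-fold lower. Of these 12 all but Atp2b2 (25.7%) were at least 74.4% labelled at 0 min, the value of B430305J03Rik. Among genes with fewer reads, Dok3, a docking protein of immune receptor signalling, had 2.92, 2.29, 3.3, 0.679, 0.31 and 0.651 CPM and Gzmm, a granule protease, 4.81, 3.74, 7.52, 1.22, 1.44 and 1.03 CPM (5.3-fold and 4.32-fold, edgeR adjusted p = 0.016 and 0.016). With so few reads these values are less precise than those above. The tight junction gene Tjp3 and the transporter-like gene Mfsd13a, with 18.5, 17.2, 16.9, 9.73, 9.97 and 9.88 CPM and 40.0, 34.7, 36.9, 22, 21.1 and 23 CPM, were flat within each group at 1.78-fold and 1.69-fold lower (edgeR adjusted p = 0.016 and 0.016). Both were named for their small p-values, a choice that favours little spread within a group.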

How the data were processed

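Nuclear RNA from 6 cultures, 1 per washout time, had been sequenced as stranded total RNA. STAR 2.5.2b and the mouse build mm10 are named in the submitters' processing notes. The assignment of reads to genes, its annotation and any use of strand were not given in the sources used here. Overlapping antisense genes and near-identical copies are therefore uncertain. The deposited table holds raw read counts per gene, gene lengths in nt, the authors' labelled fraction of each gene's reads (a posterior mean, per the file headers) and, per the file headers, counts of T-to-C conversions and covered T positions printed with 4 significant digits. No unmatched sample columns were found (0).

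Counts were filtered with filterByExpr (minimum count 10), scaled with TMM and tested late minus early with edgeR 4.0.16 (quasi-likelihood test, 4 residual degrees of freedom, Benjamini-Hochberg threshold 0.05) in R 4.3.3. SE is the log2 difference divided by the square root of the F statistic. Alternatives were DESeq2 1.42.0, limma voom 3.58.1, other scalings and filters, a slope on time, single libraries left out, and offsets that remove each library's loess trend (span 0.5) on GC content or labelled share, the offsets being chosen after seeing the data. The script was tested on simulated data. Gene IDs were matched to GENCODE M21 (23223 of 23281, 99.75%), and promoters came from RefSeq.

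The groups and gene lists were chosen with earlier results of these data known. Genes were named by a rule: Xist, Malat1, Neat1 and Ftx, the 12 largest called differences in each direction averaging 100 reads or more without overlap, the 5 smallest p-values in each direction, and 2 members per list and direction (in lists without a call, the 2 smallest p-values). Other names were chosen after their values were seen, and some genes that the rule names are not reported here. Depth was 18558073 to 28535162 reads per library, which limits genes with few reads. Permutation tests are exact and two-sided.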

Additional observations from a re-analysis of the deposited data

How the results depend on the processing

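The number of called genes moved with the libraries more than with the scaling. Of 1168 genes called (685 higher, 483 lower), edgeR called 0 to 2987 with single libraries left out (0 to 1571 higher, 0 to 1446 lower), with 0 wherever the 0, 60, 120 or 150 min library was missing. DESeq2, added after seeing the data, called 529 (356 and 173), 2623 (1684 and 939), 601 (394 and 207), 2812 (1538 and 1274), 508 (366 and 142) and 472 (311 and 161) without the 0, 30, 60, 90, 120 and 150 min library. With all libraries DESeq2 called 1912 (1172 higher, 740 lower), and edgeR without a filter 2426 (1351 and 1075). A slope on washout time in edgeR called 0 genes in either direction, although 3398 had an unadjusted p under 0.05. With the GC trend removed 559 were called (360 and 199), and with the labelled share trend removed 740 (476 and 264). The cause of these changes was not tested. DESeq2 size factors, library size alone, TMM without the rRNA-linked models, a mean of at least 100 reads and limma voom gave 1070 to 1284 calls. Of the genes named by the rule, only Neat1 changed sign, to 0.025 in edgeR and 0.00792 in DESeq2 without the 30 min library, and its edgeR value reached -0.173 without the 150 min library. Xist was not called and kept its direction under all settings, with differences of 0.0177 (GC trend removed) to 0.249 (DESeq2 without the 90 min library). No paired analysis was possible because the labels tie no early culture to a late one. Genes with few reads are limited by depth.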

Other observations

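Other gene groups are read against the 7.58% of all genes that edgeR called (4.44% higher, 3.13% lower). Of 31 genes of the G1/S transition and DNA replication (12.9% called) 3 were higher late and 1 lower: Cdc25a, a phosphatase that activates cyclin-dependent kinases (51.7, 72, 44.9, 77.1, 90.9 and 102 CPM from 0 to 150 min, 1.6-fold, edgeR adjusted p = 0.0334), the kinase inhibitor Cdkn1b (1.38-fold), cyclin Ccne2, chosen after its value was seen (1.35-fold), and the lower Chaf1b, a chromatin assembly subunit (1.32-fold). With either trend removed 1 of the 31 was called higher and 0 lower. Of 56 ribosome biogenesis genes (5.36% called) 3 were higher, Wdr43 (1.46-fold, edgeR adjusted p = 0.035), Noc3l (1.39-fold) and, chosen after its value was seen, Nop2 (1.38-fold), with 28 positive and 28 negative differences. Removal of either trend left 1 of the 56 called higher and 0 lower. The washout medium held uridine at 50 mM, and among 22 genes of pyrimidine handling (13.6% called) Upp1, which splits uridine (452, 389.6, 461, 369, 278 and 294 CPM, 1.39-fold, edgeR adjusted p = 0.0439), and Cad, which starts pyrimidine synthesis (1.28-fold, edgeR adjusted p = 0.0481), were lower and the nucleotidase Nt5c3 higher (1.42-fold, edgeR adjusted p = 0.0469). With either trend removed edgeR called 0 of these 22, and unadjusted p was under 0.05 for 7 without removal. Of 10 osmotic stress genes (10% called) the amino acid transporter Slc38a2 was higher (349, 482, 270.2, 539, 616 and 551 CPM, 1.55-fold, edgeR adjusted p = 0.0469), with the 30 min value close to the late ones. It ran against its list, in which 8 of 10 differences were negative (against 7951 of 15418 over all genes) and the median was -0.1. With the GC trend removed Slc38a2 missed the threshold (edgeR adjusted p = 0.0628).

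Mitosis, heat shock, oxidative stress, two-cell-like, elongation factor and snoRNA host lists had 0 members called in edgeR, with 10 of 27, 4 of 20, 7 of 21, 4 of 16, 10 of 24 and 0 of 7 members at an unadjusted p under 0.05, and 5, 2, 3, 1, 5 and 0 called by DESeq2. Of 12 genes of the Myc network (8.33% called) 1 was higher, Max (1.46-fold, edgeR adjusted p = 0.0336). Of 64 genes with translation factor symbols (4.69% called) Eef1e1 (1.52-fold) and Eif1a (1.37-fold) were higher and Eif4ebp1 (1.31-fold) lower. Eif4ebp1 missed the threshold with the GC or the labelled share trend removed (edgeR adjusted p = 0.0545 and 0.057). Eif1a missed it with the GC trend removed (edgeR adjusted p = 0.107). Of 18 early lineage genes (5.56% called) 1 was higher, Fgf5, described above. Among 514 tested lincRNAs 4 were higher and 25 lower (0.778% and 4.86%), against 681 and 455 of 14826 protein-coding genes (4.59% and 3.07%). The share of genes called ran from 4.95% on the X chromosome to 11.2% on chromosome 12.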
